A study of Mus musculus with 6 samples.

Results

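The genes described here are 10 members of the oxidative stress response that is run by the transcription factor NRF2: Nfe2l2, Keap1, Nqo1, Gclc, Gclm, Slc7a11, Gsr, Txnrd1, Prdx1 and Srxn1. They were chosen by symbol from the 24532 genes of the authors' table, and all 10 were found and had enough counts to be tested among 14415 genes. Each value comes from the liver of a different wild-type C57BL/6 mouse. All 6 mice were fed 0.1% DDC (3,5-diethoxycarbonyl-1,4-dihydrocollidine) for 4 weeks, a diet that blocks heme synthesis and injures bile ducts. Over the last 2 weeks, 3 of them were injected 2 times a week with recombinant human cytoglobin (rhCYGB, an oxygen-binding globin) at 2 mg/kg and 3 with saline, and tissue was collected 2 days after the final dose. No mouse without DDC was analysed here, so both groups carry the injury, and the labels used here state neither age nor sex.

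NRF2, the product of Nfe2l2, is held in the cytoplasm and sent for destruction by KEAP1. Oxidants and electrophiles modify cysteines of KEAP1, NRF2 then builds up, enters the nucleus with a small MAF partner and binds antioxidant response elements. Its targets make glutathione, keep glutathione and thioredoxin reduced, supply NADPH and conjugate or reduce reactive compounds, and in the liver most of them are active in hepatocytes. NRF2 is regulated mainly as a protein, so the transcript of Nfe2l2 is not a measure of its activity.

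By the log2 fold change of TMM-scaled counts, Nqo1 differed most of the 10 with rhCYGB, at 36.4 ± 13.2 CPM with vehicle and 94.7 ± 30.1 CPM with rhCYGB (mean ± SD, n = 3 mice each, here and below). CPM are counts scaled to a common library total, here adjusted by the trimmed mean of M values (TMM). On log2(TPM + 1), a scale without that adjustment, Nfe2l2, Txnrd1, Gclm and Gclc were farther from 0 (-1.46, -1.13, -1.06 and -0.98) than Nqo1 (0.63). Nfe2l2 differed the other way, at 128 ± 12.9 and 77.3 ± 36.8 CPM. The remaining 8 members overlapped between the groups, with 4 higher and 4 lower by the fitted log2 fold change. None of the 10 passed an adjusted p of 0.05 by edgeR, which called 0 of all 14415 genes (0%), and 1 member, Nqo1, had an unadjusted p under 0.05, as did 8.12% of all genes. Under that p 6.06% of all genes were higher and 2.06% lower. DESeq2 called 0 of the 7 members to which it gave an adjusted p, against 62 of all 1890 such genes (3.28%). It gave none to Nqo1, Keap1 and Slc7a11. The log2 fold change of Nqo1 by DESeq2 was 1.40, with an unadjusted p of 0.00085. By that test 1934 of 17475 genes had an unadjusted p under 0.05.

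Libraries differed in ways that cross the groups. Total estimated counts ran from 58422095 to 72431373. The TMM factors multiply these totals, so a smaller factor gives higher CPM. They were 1.45, 1.07 and 1.18 in the vehicle livers, against 1.18, 0.74 and 0.63 in the rhCYGB livers. In rhCYGB replicate 3 the ribosomal RNA gene Rn45s took 1.74% of the counts, against 0.225% to 0.443% in the other libraries. That library also had the fewest genes with a count, 14933, against 15542 to 16290. The first principal component, with 67.6% of the variance, placed rhCYGB replicate 1 at -52.7, inside the vehicle range of -81.3 to -24.5, and rhCYGB replicates 2 and 3 at 61.6 and 129.8. Expression also deviated with transcript length, by -0.02 to 0.40 log2 units per doubling with vehicle, by 0.24 in rhCYGB replicate 1 and by -0.35 and -0.33 in rhCYGB replicates 2 and 3. Summed markers were between 58548 and 103518 CPM with vehicle and between 89086 and 198546 CPM with rhCYGB for hepatocytes, with 8 of 8 higher. These sums and counts, and those below, use the TMM scaling. On TPM, Alb was at 62770, 66073 and 65756 in the vehicle livers, against 75256, 73665 and 62647 in the rhCYGB livers. Ttr was at 6585, 7906 and 7388 TPM, against 6150, 7992 and 4344, and Apoa1 at 9054, 17018 and 15578, against 13366, 27916 and 27977. For bile duct cells the sums were 954 to 1062 and 201 to 592 CPM, with 4 of 7 lower and 3 higher. Most of each vehicle sum was Spp1. It was at 975, 892 and 897 CPM in the vehicle livers, against 542, 299 and 113 CPM in the rhCYGB livers. Krt19, 1 of the 3 higher, was at 19.1, 22.4 and 20.5 CPM, against 13.4, 39.5 and 42.3 CPM. For stellate cells and myofibroblasts the sums were 572 to 696 and 171 to 476 CPM, with 7 of 8 lower. Endothelial markers summed to 88.1 to 126 and 52.6 to 131 CPM (4 of 6 lower) and macrophage markers to 1135 to 2014 and 1042 to 1798 CPM (5 of 8 lower). Neutrophil markers summed to 45.4 to 73.1 and 39.2 to 57.5 CPM (4 of 5 tested lower, with Ly6g at 0 in all libraries), and lymphocyte markers to 1.55 to 3.39 and 2.15 to 3.28 CPM (2 of 4 tested lower). The part of these differences in the results below was not tested, and in whole liver fewer cells of a type and less RNA per cell cannot be told apart.

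Nfe2l2 (gene 18024, mm10 chromosome 2, 75675513 to 75704663) was at 120.5, 121 and 143 CPM in vehicle replicates 1 to 3 and at 119, 61.0 and 51.3 CPM in rhCYGB replicates 1 to 3. All rhCYGB livers were below all vehicle livers, but rhCYGB replicate 1 lay just under the lowest vehicle liver, and the separation comes from replicates 2 and 3. On TPM the groups of Nfe2l2 overlapped, at 137, 87.5 and 117 in the vehicle livers, against 104.9, 27.7 and 21.9 in the rhCYGB livers. The log2 fold change was -0.73 (SE 0.36; by edgeR, unadjusted p = 0.0801 and adjusted p = 0.523). Without rhCYGB replicate 1 it was -1.20, and the gene passed (edgeR adjusted p = 0.0216), in a fit that called 23.2% of all genes, 12.7% higher and 10.5% lower. Keap1 (gene 50868, chromosome 9, 21229730 to 21239332), the adaptor that hands NRF2 to a ubiquitin ligase, was at 46.8, 62.4 and 55.3 CPM in the vehicle livers, against 56.2, 63.2 and 76.3 CPM in the rhCYGB livers. Its groups overlapped, and the log2 fold change was 0.25 (SE 0.24, edgeR adjusted p = 0.622).

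Because those values move with scaling, sensor and factor were also set against each other within each library. The ratio uses TPM (transcript abundance corrected for length and scaled to a common total) and does not depend on any scaling between libraries. It does not remove the differences in length slope. The log2 ratio of Keap1 to Nfe2l2 was -1.94, -1.53 and -1.88 in the vehicle livers, against -1.62, -0.55 and -0.04 in the rhCYGB livers. Vehicle livers and rhCYGB replicate 1 thus held about the same balance, while in rhCYGB replicates 2 and 3 the Keap1 level came closer to that of Nfe2l2. The difference of 1.04 had a two-sided exact permutation p of 0.2 and an adjusted p of 0.343 over the 12 within-library quantities compared. With 3 mice a group such a test cannot go below 0.1.

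**Figure D1:**
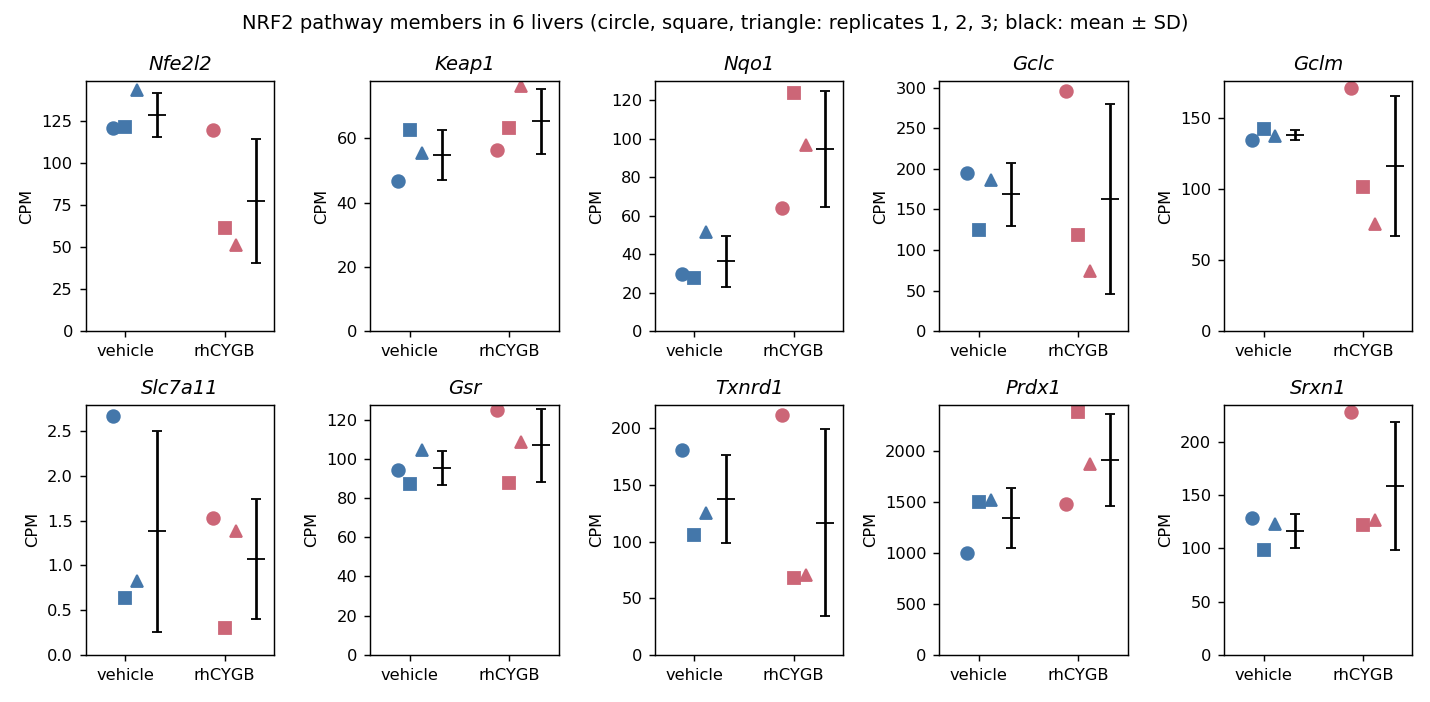
TMM-scaled CPM (vertical axes, linear from 0) of the 10 members in each of the 6 livers, with circles, squares and triangles for replicates 1, 2 and 3 and black marks for the group mean ± SD. Nqo1 is higher and Nfe2l2 lower in all rhCYGB livers, while in Gclc, Gclm, Txnrd1 and Srxn1 rhCYGB replicate 1 is the highest liver.

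Nqo1 (gene 18104, chromosome 8, 107388225 to 107403205) encodes a quinone reductase and is a common readout of NRF2 activity. It was at 29.9, 27.7 and 51.6 CPM in the vehicle livers, against 63.7, 124 and 96.7 CPM in the rhCYGB livers, so every rhCYGB liver, replicate 1 included, was above every vehicle liver. The mean was 2.60-fold higher, and the log2 fold change was 1.38 (SE 0.36; by edgeR, unadjusted p = 0.00639 and adjusted p = 0.523). Groups that do not overlap were found for 13.4% of all genes, 6.02% higher and 7.38% lower, and among the members for 2 of 10, Nqo1 and Nfe2l2. On TPM the levels were 54.2, 31.6 and 66.5 in the vehicle livers, against 88.7, 85.6 and 57.2 in the rhCYGB livers, and there rhCYGB replicate 3 lay inside the vehicle range. The log2 fold change stayed above 0 in all 15 alternatives, from 0.63 on log2(TPM + 1) to 1.71 without vehicle replicate 3. On log2(TPM + 0.1) it was 0.64. With the trend on transcript length removed it was 1.11.

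Glutathione synthesis begins with cystine, which the exchanger encoded by Slc7a11 brings into the cell, and with glutamate-cysteine ligase, whose catalytic subunit is made by Gclc and whose modifier subunit by Gclm. Gclc (gene 14629, chromosome 9, 77754535 to 77794489) was at 195, 124 and 187 CPM in the vehicle livers, against 296, 118 and 74.7 CPM in the rhCYGB livers. The highest and the lowest liver of all 6 were therefore both in the rhCYGB group. Its log2 fold change was -0.05, with an SE of 0.52 (edgeR adjusted p = 0.963). Gclm (gene 14630, chromosome 3, 122245557 to 122267215) followed the same order of livers within the rhCYGB group, at 135, 142 and 137 CPM in the vehicle livers, against 170.4, 101 and 75.4 CPM in the rhCYGB livers. The vehicle livers lay close together, and the rhCYGB livers were on both sides of them. The log2 fold change was -0.25 (SE 0.34, edgeR adjusted p = 0.709) and had the same sign in all 15 alternatives. A pseudogene of RefSeq lies within the span of Gclm.

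The balance of the subunits, as the log2 TPM ratio of Gclc to Gclm, was -0.19, -0.92 and -0.28 in the vehicle livers, against 0.07, -0.50 and -0.74 in the rhCYGB livers. The groups differed by 0.07, less than the SD of either (0.40 and 0.42, exact permutation p = 0.9, adjusted p = 0.9 over the 12 quantities). Without rhCYGB replicate 1 both subunits had lower fitted values with rhCYGB, with log2 fold changes of -0.81 for Gclc and -0.65 for Gclm, but neither passed (edgeR adjusted p = 0.101 and 0.0859). Slc7a11 (gene 26570, chromosome 3, 50364936 to 50443613) had few counts. It was at 2.67, 0.638 and 0.827 CPM in the vehicle livers, against 1.52, 0.297 and 1.38 CPM in the rhCYGB livers, from 16 to 226 estimated counts per library. Vehicle replicate 1 was the highest and rhCYGB replicate 2 the lowest, and the SE of its log2 fold change, 0.78, was larger than the change itself, -0.37 (edgeR adjusted p = 0.807).

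The promoter of Gclm is shown because it holds the motif that was searched for. The search covered the 10 RefSeq promoters (GRCm38.p6) found for 8 members, each 250 bases before to 50 after a start site, on both strands. The letters TGACNNNGC, the core of the antioxidant response element, were in 5 of the 10, and in 12.4% of 32851 promoters of the same length. These 5 were Nfe2l2, Gclm, Prdx1, Srxn1 and the promoter of Txnrd1 at the start that variants 2 and 3 share. A match describes letters only and is not a measured binding site. No entry was found for Gclc or Gsr. In the sequence, which runs 5′ to 3′ on the plus strand at chr3:122245307-122245606, capitals mark the match, which reads on the opposite strand.
Gclm promoter: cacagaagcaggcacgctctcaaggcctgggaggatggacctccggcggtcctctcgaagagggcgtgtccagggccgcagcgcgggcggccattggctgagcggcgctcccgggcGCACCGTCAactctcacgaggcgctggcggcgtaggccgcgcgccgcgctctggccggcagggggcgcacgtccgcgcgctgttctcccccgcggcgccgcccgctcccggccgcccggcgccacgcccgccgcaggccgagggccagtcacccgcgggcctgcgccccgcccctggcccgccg

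Gsr and Txnrd1 encode the NADPH-dependent reductases that keep glutathione and thioredoxin reduced. Gsr (gene 14782, chromosome 8, 33653238 to 33698162) was at 94.5, 87.2 and 104 CPM in the vehicle livers, against 125, 87.5 and 109 CPM in the rhCYGB livers. The groups overlapped, with a log2 fold change of 0.17 (SE 0.25, edgeR adjusted p = 0.734). A pseudogene and a small nucleolar RNA gene of RefSeq lie within its span, and how reads there were divided was not stated. Txnrd1 (gene 50493, chromosome 10, 82833951 to 82897724) was at 181, 106 and 125 CPM in the vehicle livers, against 212, 67.8 and 70.5 CPM in the rhCYGB livers. As with Gclc, rhCYGB replicate 1 was the highest liver and replicates 2 and 3 the lowest. Its log2 fold change was -0.23 (SE 0.50, edgeR adjusted p = 0.810). Without rhCYGB replicate 1 it was -0.99 and passed (edgeR adjusted p = 0.0466). That fit called 3 of the 10 members, Nqo1 higher and Nfe2l2 and Txnrd1 lower, and limma-voom with sample quality weights called these 3 too, where it called 30.0% of all genes.

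Txnrd1 is transcribed from several start sites, and the deposited table splits it into 4 variants. Variant 2, which starts at 82859206, was at 183, 95.3 and 121 CPM in the vehicle livers, against 212, 49.2 and 41.5 CPM in the rhCYGB livers. Variant 4 starts 1135 bases further on, at 82860341, and was at 0.62, 5.71 and 6.91 CPM in the vehicle livers, against 0.80, 15.8 and 23.6 CPM in the rhCYGB livers. Its share of the gene's TPM was thus 0.308%, 5.17% and 5.28% in the vehicle livers, against 0.353%, 23.8% and 35.7% in the rhCYGB livers. Replicate 1 of each group had almost none of it, and rhCYGB replicates 2 and 3 had the largest shares (difference 16.4 percentage points, exact permutation p = 0.3, adjusted p = 0.36 over the 12 quantities). By edgeR on 19664 transcripts neither variant passed (log2 fold change -0.40, SE 0.71, adjusted p = 0.878 for variant 2, and 1.60, SE 1.34, adjusted p = 0.818 for variant 4), nor did any transcript (0%). Variant 3 was at 0 CPM in vehicle replicate 3 and in rhCYGB replicates 2 and 3, and variant 1 was at 0.101 CPM at most. Another gene, Eid3, and a long noncoding RNA gene overlap the span of Txnrd1, so part of the counts may be shared.

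The promoters of variants 2 and 4 are given because the shares of these transcripts differed between livers in opposite directions. Both run 5′ to 3′ on the plus strand, at chr10:82858956-82859255 and chr10:82860091-82860390. Capitals mark TGACNNNGC, read on the opposite strand, in the first. The second holds no match in this window.
Txnrd1 variant 2 promoter: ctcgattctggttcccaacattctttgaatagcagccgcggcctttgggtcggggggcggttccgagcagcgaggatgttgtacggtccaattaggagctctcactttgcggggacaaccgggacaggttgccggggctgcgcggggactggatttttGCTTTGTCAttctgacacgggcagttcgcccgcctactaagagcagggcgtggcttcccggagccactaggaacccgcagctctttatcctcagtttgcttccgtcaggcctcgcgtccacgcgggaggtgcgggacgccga
Txnrd1 variant 4 promoter: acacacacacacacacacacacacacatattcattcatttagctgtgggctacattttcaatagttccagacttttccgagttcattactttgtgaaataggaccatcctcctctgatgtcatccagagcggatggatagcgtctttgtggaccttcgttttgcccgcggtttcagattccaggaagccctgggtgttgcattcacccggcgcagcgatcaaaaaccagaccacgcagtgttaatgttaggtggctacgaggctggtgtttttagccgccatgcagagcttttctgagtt

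Nfe2l2 also has a second transcript whose estimated share differed between livers. Variant 1 was at 126, 119.6 and 142 CPM in the vehicle livers, against 120.3, 52.2 and 33.3 CPM in the rhCYGB livers. Variant 2, a noncoding transcript that shares the start site but stops 15539 bases short of the end of variant 1, was at 2.54, 3.54 and 4.45 CPM in the vehicle livers, against 3.64, 6.24 and 14.2 CPM in the rhCYGB livers. Its share of the gene's TPM was 3.02%, 4.35% and 4.61% in the vehicle livers, against 4.44%, 15.5% and 39.6% in the rhCYGB livers, so again rhCYGB replicate 1 sat with the vehicle livers and replicates 2 and 3 stood apart (exact permutation p = 0.2, adjusted p = 0.343 over the 12 quantities). The log2 fold changes were -0.91 for variant 1 (SE 0.50) and 1.19 for variant 2 (SE 0.61), each with an edgeR adjusted p of 0.802. Without rhCYGB replicate 1, variant 1 was the 1 member transcript of the 16 tested that passed. Its log2 fold change there was -1.60 (edgeR adjusted p = 0.0494), in a fit that called 958 of all 20430 transcripts tested.

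Keap1 has 4 listed variants with the same outer coordinates. Variant 4 held 43.2%, 36.8% and 51.0% of the gene's TPM in the vehicle livers, against 59.9%, 54.0% and 71.7% in the rhCYGB livers, and these groups did not overlap (exact permutation p = 0.1, the smallest possible, adjusted p = 0.343 over the 12 quantities). It was at 18.4, 20.2 and 26.0 CPM in the vehicle livers, against 31.0, 28.7 and 48.3 CPM in the rhCYGB livers. The fitted change was 0.74 on the log2 scale (SE 0.29, edgeR unadjusted p = 0.0469 and adjusted p = 0.802). The other Keap1 variants overlapped between the groups. Variant 1 held 36.4%, 31.1% and 21.2% in the vehicle livers, against 29.1%, 29.9% and 7.27% in the rhCYGB livers (log2 fold change -0.27, SE 0.50, edgeR adjusted p = 0.879). Variant 2 held 12.9%, 22.9% and 16.1%, against 8.93%, 16.1% and 10.3% (log2 fold change -0.38, SE 0.44, edgeR adjusted p = 0.834). Variant 3 held 7.48%, 9.15% and 11.8%, against 2.05%, 0% and 10.7% (log2 fold change -0.78, SE 1.82, edgeR adjusted p = 0.903). With Nqo1, variant 4 was 1 of 2 among the 16 member transcripts under an unadjusted p of 0.05, against 4.04% of all transcripts. The variants are 3151 to 4470 bases long, and shares are the assembler's estimates. Variant 4 is the shortest of them. The rhCYGB libraries with the highest shares of Nfe2l2 variant 2 and Txnrd1 variant 4 are also those with negative length slopes. Nfe2l2 variant 2 is shorter than its variant 1 (1621 and 2497 bases). Txnrd1 variant 4 is slightly longer than its variant 2 (3505 and 3417 bases). The part of the length slopes in the shares was not tested.

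**Figure D2:**
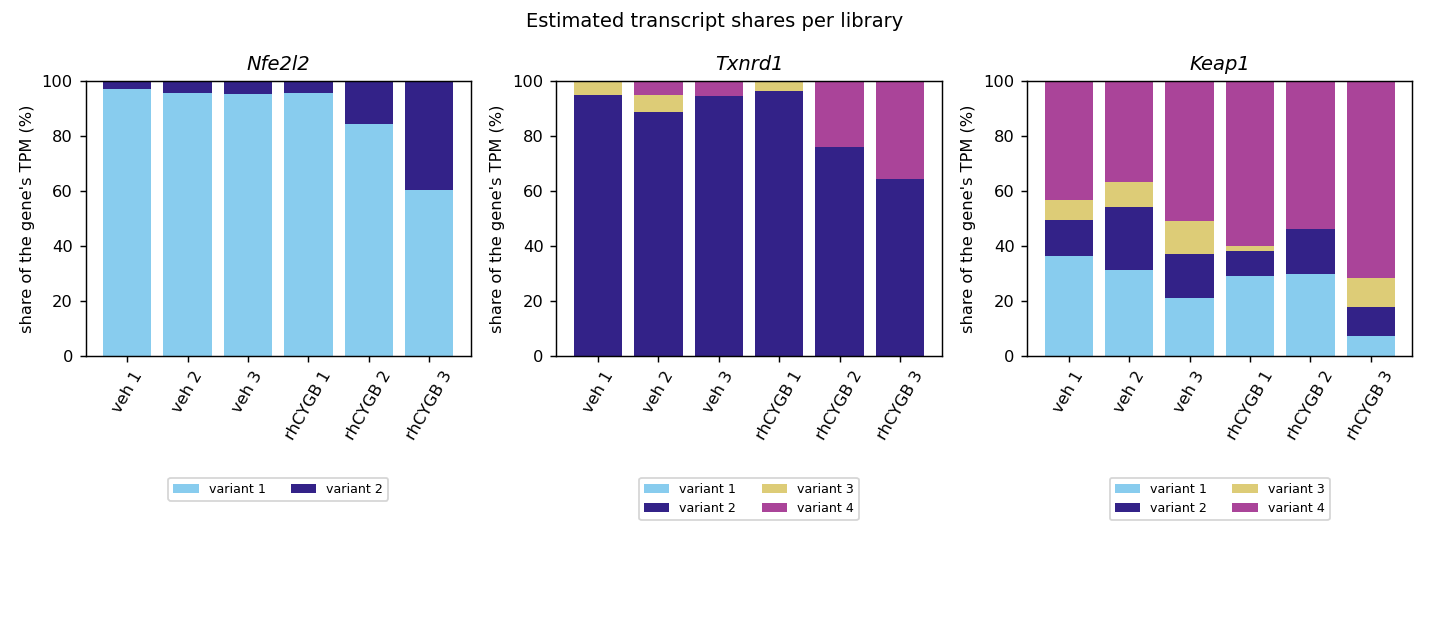
Share of each gene's TPM (vertical axis, percent) assigned to each transcript variant of Nfe2l2, Txnrd1 and Keap1 in the 6 libraries. Variant 2 of Nfe2l2 reaches 39.6% and variant 4 of Txnrd1 35.7% in rhCYGB replicate 3, while rhCYGB replicate 1 (4.44% and 0.353%) resembles the vehicle livers.

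Prdx1 encodes a peroxiredoxin that removes peroxides with thioredoxin as its reductant, and Srxn1 encodes sulfiredoxin, which repairs peroxiredoxins whose cysteine has been overoxidised. Prdx1 (gene 18477, chromosome 4, 116685599 to 116700000) was the most abundant member, at 999.6, 1494 and 1519 CPM in the vehicle livers, against 1476, 2379.6 and 1870.3 CPM in the rhCYGB livers. Only rhCYGB replicate 1 lay within the vehicle range. The log2 fold change was 0.51 (SE 0.37, edgeR adjusted p = 0.565). A long noncoding RNA gene overlaps its start. Srxn1 (gene 76650, chromosome 2, 152105524 to 152111376) was at 128, 98.2 and 123 CPM in the vehicle livers, against 228, 121 and 126 CPM in the rhCYGB livers. Its higher mean with rhCYGB rested on replicate 1, since the other livers of that group lay among the vehicle livers. The log2 fold change was 0.45 (SE 0.33, edgeR adjusted p = 0.567), and it was 0.09 without rhCYGB replicate 1. The log2 TPM ratio of Srxn1 to Prdx1 was -3.95, -4.92 and -4.61 in the vehicle livers, against -3.68, -5.28 and -4.88 in the rhCYGB livers (exact permutation p = 0.9).

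Among the 10 promoters those of Prdx1 and Srxn1 were the only ones to hold TGAGTCA, the core bound by AP-1 and NF-E2 type factors, which was searched for in addition on both strands and is in 5.20% of all promoters in the table. Each holds it 2 times and also holds TGACNNNGC once, and in Prdx1 one copy of TGAGTCA overlaps that match. They are shown for this shared content. Both run 5′ to 3′ on the plus strand, at chr4:116685349-116685648 and chr2:152105274-152105573, with all matches in capitals.
Prdx1 promoter: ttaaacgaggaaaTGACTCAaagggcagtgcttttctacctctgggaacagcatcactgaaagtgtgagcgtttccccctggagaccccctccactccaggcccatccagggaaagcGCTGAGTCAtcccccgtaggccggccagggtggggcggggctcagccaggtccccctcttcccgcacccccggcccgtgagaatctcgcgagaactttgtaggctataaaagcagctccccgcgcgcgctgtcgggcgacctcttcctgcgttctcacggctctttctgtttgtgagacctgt
Srxn1 promoter: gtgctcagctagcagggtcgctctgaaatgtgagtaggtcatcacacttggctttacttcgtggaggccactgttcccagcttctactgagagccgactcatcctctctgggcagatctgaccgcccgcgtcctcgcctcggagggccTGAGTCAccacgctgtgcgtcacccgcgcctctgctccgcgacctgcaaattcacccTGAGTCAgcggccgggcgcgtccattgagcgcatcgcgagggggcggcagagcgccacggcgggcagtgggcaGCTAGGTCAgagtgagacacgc

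The pattern over the 6 libraries was compared by the root mean square difference of log2 CPM deviations from each gene's mean. Gsr and Srxn1 were the closest pair of members (0.24), followed by Keap1 and Prdx1 (0.25) and by Gclc and Txnrd1 (0.26). Gclc and Txnrd1 are on long transcripts (3427 and 3417 bases) and were highest in the libraries with the 2 largest length slopes, vehicle replicate 1 and rhCYGB replicate 1, and lowest in rhCYGB replicates 2 and 3. Nqo1 is on a short transcript (1552 bases). Keap1, also on a long transcript (3151 bases), was lowest in vehicle replicate 1 and highest in rhCYGB replicate 3. Prdx1, close to Keap1 in pattern, is on a short one (1417 bases). The part of transcript length in these patterns was not tested. Over the 104 other genes of the members and the pathway lists below, the closest to Nqo1 were Gstm1 (0.11), Cbr1 (0.26) and Gsta2 (0.30), and the closest to Gclc were Ugt1a6a (0.17), Sesn2 (0.22) and Txnrd1 (0.26). By CPM rhCYGB replicate 1 was the highest liver for 5 of the 10 members and the lowest for 0. By TPM vehicle replicate 1 and rhCYGB replicate 1 were each the highest for 5, and rhCYGB replicate 3 was the lowest for 6.

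Setting Nqo1 against the other targets within a library removed the scaling from this contrast, but not the differences in length slope. Nqo1 is on a shorter transcript (1552 bases) than Gclc and Txnrd1 (3427 and 3417 bases), and the part of that in these ratios was not tested. The log2 TPM ratio of Nqo1 to Gclc was -1.56, -1.03 and -0.71 in the vehicle livers, against -1.07, 1.21 and 1.52 in the rhCYGB livers. That to Txnrd1 was -1.46, -0.80 and -0.14 in the vehicle livers, against -0.59, 2.02 and 1.61 in the rhCYGB livers. Nqo1 was thus below Gclc and Txnrd1 in every vehicle liver and in rhCYGB replicate 1, and above them in rhCYGB replicates 2 and 3. The ratio to Gsr was -0.88, -0.87 and -0.23 in the vehicle livers, against -0.19, 1.28 and 0.62 in the rhCYGB livers, and that to Prdx1 was -5.19, -5.89 and -5.01 in the vehicle livers, against -4.66, -4.40 and -4.41 in the rhCYGB livers. For these 2 ratios the groups did not overlap (exact permutation p = 0.1, the smallest possible, adjusted p = 0.343 for each). The ratios to Gclm and Srxn1 were higher by 1.72 and 0.99 with rhCYGB (exact permutation p = 0.2 and 0.3, adjusted p = 0.343 and 0.36), and those to Gclc and Txnrd1 by 1.65 and 1.81 (exact permutation p = 0.3 and 0.2, adjusted p = 0.36 and 0.343).

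**Figure D3:**
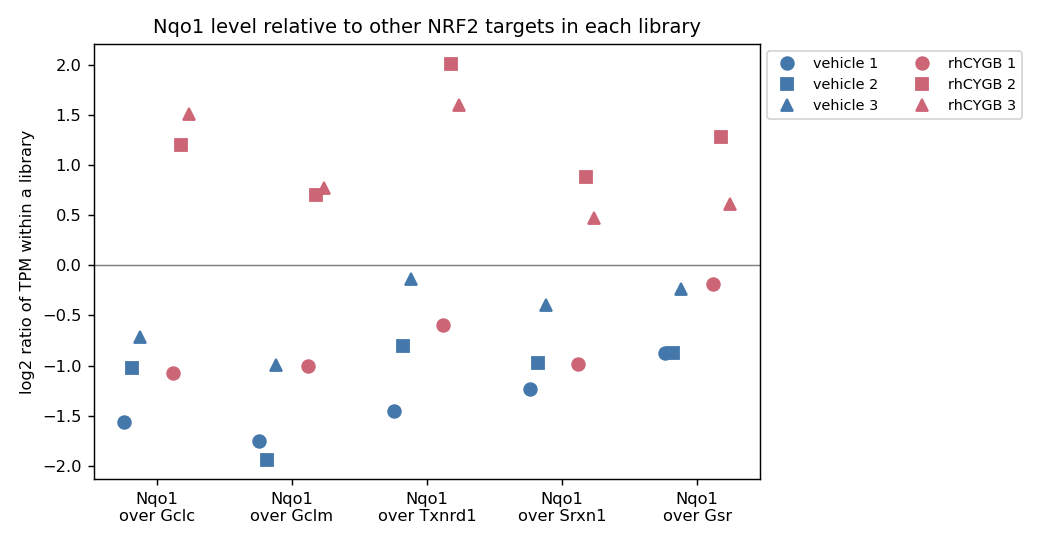
Log2 ratio of the TPM of Nqo1 to that of 5 other targets within each library (vertical axis), blue for vehicle and red for rhCYGB, with circles, squares and triangles for replicates 1, 2 and 3. In rhCYGB replicates 2 and 3 all 5 ratios are above 0, and in the vehicle livers and rhCYGB replicate 1 all are below 0. Differences in length slope between libraries are not removed.

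The order of abundance can be compared between genes only on TPM. With vehicle, Prdx1 stood far above the rest at 1998 ± 139 TPM, followed by Gclm at 145 ± 32.6, Nfe2l2 at 114 ± 24.8, Gclc at 111 ± 48.0, Srxn1 at 92.5 ± 33.3, Txnrd1 at 92.3 ± 49.6, Gsr at 78.4 ± 20.8, Nqo1 at 50.7 ± 17.7, Keap1 at 32.6 ± 2.78 and Slc7a11 at 0.371 ± 0.384 TPM. Apart from Prdx1 at the top and Slc7a11 at the bottom, each neighbouring pair overlapped between mice. With rhCYGB these levels were 1754 ± 520 for Prdx1, 87.8 ± 78.3 for Gclm, 87.6 ± 75.9 for Srxn1, 81.1 ± 91.5 for Gclc, 77.1 ± 17.3 for Nqo1, 57.9 ± 65.8 for Txnrd1, 57.8 ± 37.3 for Gsr, 51.5 ± 46.3 for Nfe2l2, 24.7 ± 8.16 for Keap1 and 0.176 ± 0.164 TPM for Slc7a11. Here too only Prdx1 and Slc7a11 stood clear of their neighbours.

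The TPM and the TMM-scaled values put the zero of the comparison at different places. On log2(TPM + 1) the median of all genes was -0.51, and 12.8% of genes had a log2 fold change above 0, against a median of -0.06 and 46.8% with TMM. With TMM 5 of 10 members were above 0, and on log2(TPM + 1) 1 of 10, Nqo1. Measured from the median of all genes, Nqo1 was 1.44 higher with TMM and 1.14 higher on log2(TPM + 1), and Nfe2l2 was at -0.68 and -0.94. Prdx1 was at 0.57 and 0.28, Srxn1 at 0.50 and 0.17 and Keap1 at 0.31 and 0.09. Gclm was at -0.20 and -0.55, Txnrd1 at -0.18 and -0.62, Gclc at 0.0046 and -0.47, Gsr at 0.22 and -0.06 and Slc7a11 at -0.32 and 0.32, so the last 3 changed sign with the scale. Slc7a11 was under 1 TPM in every library, where the added 1 shrinks any difference. On log2(TPM + 0.1) its log2 fold change was -0.65, against a median of all genes of -0.75. With upper-quartile factors, where the median of all genes was -0.18, all 10 kept the sign they had with TMM.

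**Figure D4:**
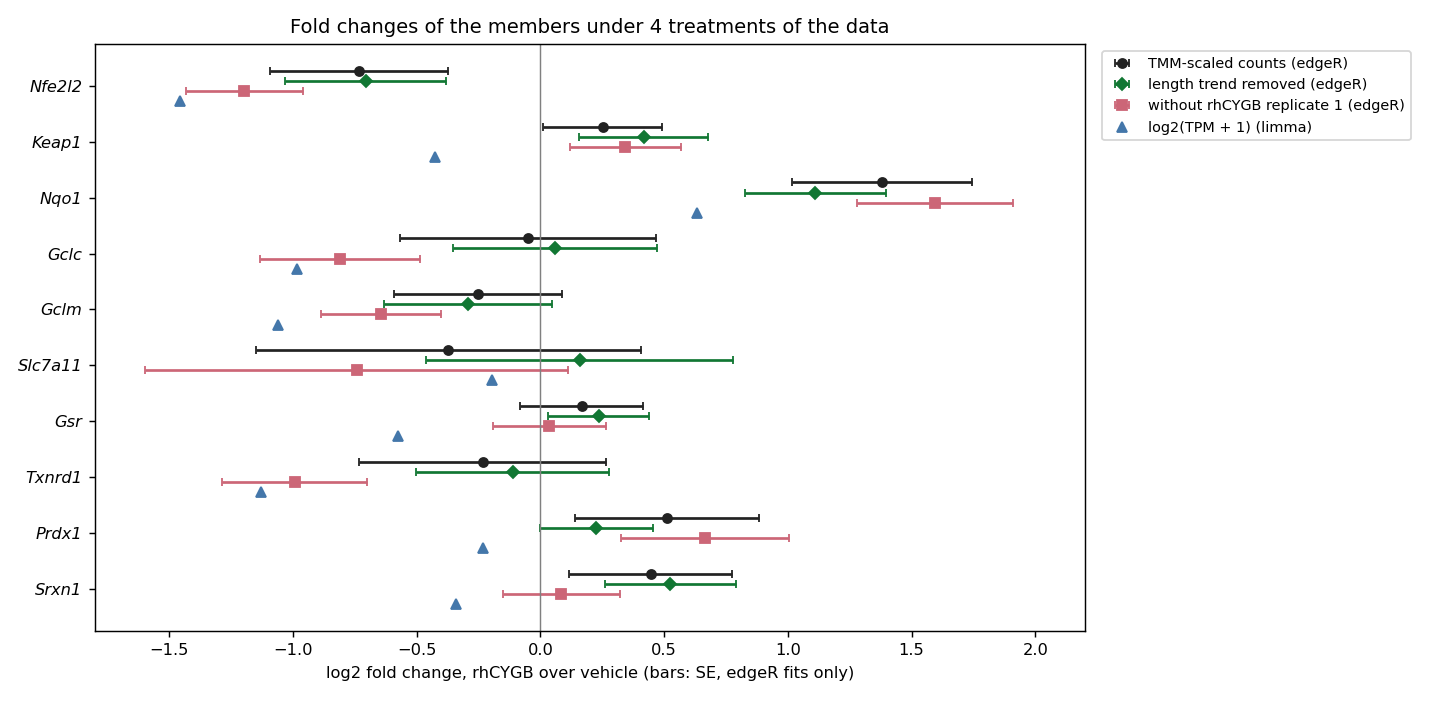
Log2 fold change, rhCYGB over vehicle (horizontal axis), of the 10 members from TMM-scaled counts, with the length trend removed, without rhCYGB replicate 1 and on log2(TPM + 1), with SE bars for the edgeR fits. Nqo1 is above 0 and Nfe2l2 and Gclm below 0 in all 4, and Gclc and Txnrd1 lie farther below 0 without rhCYGB replicate 1 than with it.

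Other genes of the pathway were read from 6 lists of 96 genes, of which 95 were tested. None passed by edgeR (0 of 95). With TMM 74 of 95 (77.9%) had values above 0, with a median log2 fold change of 0.49, and 21 of them (22.1% of the 95) were under an unadjusted p of 0.05, with 0 such genes below 0, where 6.06% of all genes were higher and 2.06% lower under that p. Groups did not overlap for 16 in the higher and 2 in the lower direction (16.8% and 2.11%, against 6.02% and 7.38% of all genes). On log2(TPM + 1) the count above 0 was 32 of 95 and the median -0.28, above the median of all genes by TPM. With the length trend removed the count was 67 of 95 and the median 0.34. Without rhCYGB replicate 1, 26 were called higher and 4 lower (31.6% of 95 together), in a fit that called 12.7% of all genes higher and 10.5% lower.

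With TMM, the list for making, recycling and using glutathione, with the glutathione transferases, had the highest median, 1.11. Of its 29 genes 28 were above 0, and 13 had an unadjusted edgeR p under 0.05. Gpx2, a glutathione peroxidase, was at 6.19, 3.92 and 5.37 CPM in the vehicle livers, against 16.9, 25.2 and 21.0 CPM in the rhCYGB livers, with no overlap. Gsta2 was at 156 ± 52.8 and 526 ± 197 CPM, and Gstm1, the most abundant of the list, at 3789.8 ± 1067 and 9764 ± 2689 CPM; both conjugate glutathione to electrophiles, and both belong to families of near-identical copies among which reads are uncertain. Glrx, a glutaredoxin, was at 34.0 ± 7.10 and 73.2 ± 27.1 CPM. For Gpx2, Gsta2, Gstm1 and Glrx all rhCYGB livers were above all vehicle livers by CPM. By TPM this held for Gpx2 and Gsta2, while the groups of Gstm1 and Glrx overlapped. On log2(TPM + 1) 19 of the 29 remained above 0. With the length trend removed 25 of the 29 were above 0. The median was then 0.62, just under that of the quinone, carbonyl and aldehyde list, 0.64.

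With TMM, quinone, carbonyl and aldehyde enzymes, the class of Nqo1, had 10 of 12 tested genes above 0 and a median of 0.59. Of these, 3 were under an unadjusted edgeR p of 0.05. On log2(TPM + 1) 5 of the 12 were above 0, with a median of -0.16, against -0.51 for all genes. Cbr1, a carbonyl reductase, was at 129, 146 and 176 CPM in the vehicle livers, against 246, 371 and 383 CPM in the rhCYGB livers. Its relative Cbr3 was at 6.30 ± 1.06 and 16.1 ± 7.07 CPM, the aldehyde reductase Akr7a5 at 125 ± 31.3 and 355 ± 221 CPM and the epoxide hydrolase Ephx1 at 642 ± 202 and 1184 ± 324 CPM. By CPM the groups of Akr7a5 overlapped, with rhCYGB replicate 1 inside the vehicle range, and those of the other 3 did not. By TPM the groups of Cbr1, Cbr3 and Ephx1 overlapped as well. DESeq2 called Cbr1, Gsta2 and Gstm1 higher (adjusted p = 0.0261, 0.00934 and 0.01996), 3 of the 56 pathway genes to which it gave an adjusted p, against 3.28% of all such genes.

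Among thioredoxin and peroxiredoxin genes 13 of 15 were above 0 with TMM, with a median of 0.44, and 0 had an unadjusted edgeR p under 0.05. On log2(TPM + 1) 3 of 15 were above 0, with a median of -0.30, against -0.51 for all genes. With the length trend removed 11 of 15 were above 0, with a median of 0.16. Txn2, the mitochondrial thioredoxin, was at 149.7 ± 24.0 and 294 ± 149 CPM, its reductase Txnrd2 at 21.5 ± 4.22 and 31.95 ± 10.03 CPM, and Prdx5, the most abundant of the list, at 216 ± 67.8 and 405 ± 191 CPM. In each of these rhCYGB replicate 1 was inside the vehicle range by CPM and replicates 2 and 3 were above it. By TPM only replicate 3 was above it for Txn2 and Prdx5. Txnrd2 was at 24.5, 22.6 and 24.7 TPM in the vehicle livers, against 23.4, 19.8 and 19.2 TPM in the rhCYGB livers.

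NADPH supply was the list with the lowest median, -0.20 with TMM, with 5 of 7 below 0. On log2(TPM + 1) its median was -0.99, and 1 of 7 was above 0. Pgls, an enzyme of the pentose phosphate pathway, was at 61.3 ± 16.5 and 167 ± 111 CPM and Taldo1, of the same pathway, at 191 ± 55.9 and 275 ± 94.0 CPM. Pgd, which yields NADPH directly, was at 154, 139 and 140.5 CPM in the vehicle livers, against 156, 81.0 and 53.3 CPM in the rhCYGB livers. Its order of livers in the rhCYGB group is that of Gclc and Gclm.

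Heme, iron and efflux targets had 14 of 18 above 0 and a median of 0.41 with TMM. On log2(TPM + 1) 4 of 18 were above 0, with a median of -0.35, against -0.51 for all genes. Blvrb, a biliverdin and flavin reductase, was at 118 ± 21.9 and 334 ± 197 CPM, the efflux pump Abcc3 at 192 ± 19.0 and 357 ± 109.7 CPM, the stress pseudokinase Trib3 at 4.99 ± 1.70 and 9.55 ± 1.90 CPM and the ferritin light chain Ftl1 at 5933 ± 1750.3 and 9168 ± 2551 CPM. By CPM, groups did not overlap for 3 genes of this list in the higher direction, Abcc3, Trib3 and Abcb6. Abcb6 was at 50.4 to 57.9 CPM with vehicle and 60.7 to 127 CPM with rhCYGB. In the lower direction there was 1, Abcc1 (7.29 to 10.8 and 3.80 to 7.04 CPM). By TPM the groups of Abcc3, Trib3, Abcb6 and Abcc1 all overlapped. Abcb6 and Abcc1 were named after their values were seen. The regulators around NRF2, with partners, competitors and ligase parts, had 7 of 14 above 0 and a median of -0.04 with TMM. On log2(TPM + 1) 0 of 14 were above 0, with a median of -0.56. Syvn1, a ubiquitin ligase of the endoplasmic reticulum, was at 52.5 ± 15.6 and 34.8 ± 9.74 CPM, Btrc, the substrate adaptor of another NRF2 ligase, at 12.3 ± 2.05 and 9.51 ± 1.61 CPM, Rbx1 at 40.1 ± 8.51 and 56.6 ± 17.5 CPM and the KEAP1-binding autophagy receptor Sqstm1 at 453 ± 85.8 and 415 ± 71.9 CPM. Of the regulators only Btrc had groups that did not overlap by CPM, in the lower direction, and by TPM its groups overlapped. None of the genes named from these 6 lists passed by edgeR.

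**Figure D5:**
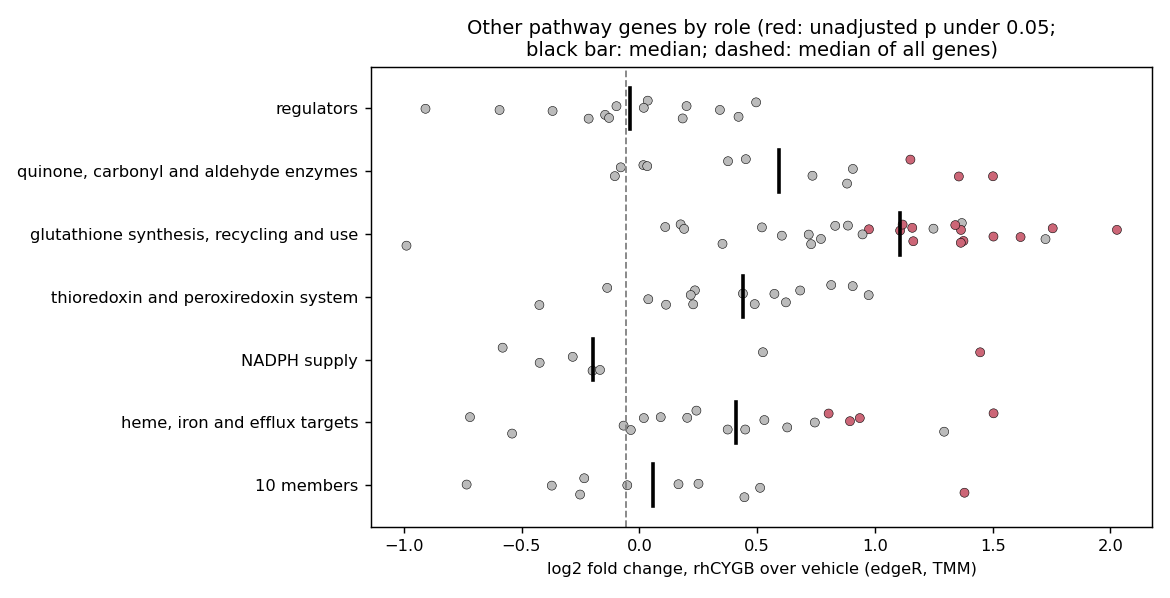
Log2 fold change, rhCYGB over vehicle, from TMM-scaled counts (horizontal axis) of the tested genes of the 6 pathway lists and of the 10 members, 1 point per gene, red for an unadjusted edgeR p under 0.05. Black bars are list medians, from -0.20 for NADPH supply to 1.11 for the glutathione list, and the dashed line is the median of all genes, -0.06.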

How the data were processed

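Liver mRNA was measured in 6 mice, 3 per group, each labelled with its own animal number. Replicates are numbered in deposition order, so no animals are paired. The authors deposited each estimated count as a whole number, made with their assembler, and FPKM per gene and transcript. HISAT2 2.1.0, StringTie 1.3.4d and mm10 are named per the submitters' processing notes; neither the strand setting nor the annotation release is stated, so overlapping genes and near-identical copies are uncertain. TPM are the deposited FPKM rescaled to each library's sum.

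Counts were tested with edgeR 4.0.16 in R 4.3.3 (filterByExpr, TMM, robust quasi-likelihood test), and p-values were adjusted by Benjamini-Hochberg across 14415 genes or 19664 transcripts, at an adjusted p of 0.05. The SE was taken as the size of the log2 fold change divided by the root of the F statistic. Alternatives used DESeq2 1.42.0 and limma 3.58.1, among others. The members and lists were chosen with earlier results of these data known. Named are all members, the 3 smallest p-values and the highest TPM of each list, all transcripts with at least 10% of a gene's mean TPM in either group, and the 3 genes closest to Nqo1 and to Gclc. The promoter search for TGAGTCA and the minor Txnrd1 variants were added after the values were seen.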

Additional observations from a re-analysis of the deposited data

How the results depend on the processing

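Counts of calls depended on the test and on 1 library. Genes past the threshold numbered 0 by edgeR, with 1170 at an unadjusted p under 0.05, but 62 by DESeq2, 4323 by limma-voom with sample quality weights, and from 0 to 3391 with 1 library left out, the highest without rhCYGB replicate 1. Members past it numbered 0, 3 by the weighted limma-voom and 0 to 3 with 1 library left out, again highest without rhCYGB replicate 1. Other pathway genes past it numbered 3 by DESeq2, 44 by weighted limma-voom and 0 to 30 with 1 library left out. For transcripts that range was 0 to 958. The count of members above 0, 5 of 10, was 1 on log2(TPM + 1) and on log2(TPM + 0.1) and 5 to 8 with 1 library left out, 8 without vehicle replicate 1 or rhCYGB replicate 2. Their median log2 fold change, 0.06, was -0.28 by weighted limma-voom, -0.50 and -0.62 on the TPM scales, and -0.30 to 0.20 with 1 library left out, -0.30 without rhCYGB replicate 1. Nqo1, Nfe2l2 and Gclm kept their sign in all 15 alternatives.

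Signs changed for the other 7. On log2(TPM + 1) and log2(TPM + 0.1), Keap1 was at -0.42 and -0.44, Gsr at -0.58 and -0.59, Prdx1 at -0.23 in both and Srxn1 at -0.34 and -0.35. Gsr was at -0.087 by weighted limma-voom. With the length trend removed Gclc was at 0.058 and Slc7a11 at 0.16. With 1 library left out Gclc ran from -0.81 to 0.29, Txnrd1 from -0.99 to 0.032 and Slc7a11 from -0.74 to 0.54. The causes were not tested, except that the TPM scales lack the TMM scaling. Slc7a11 had too few counts for the filter of 1 CPM in 3 samples, which gave no value for it. No paired analysis was possible because the labels give no shared replicate numbers.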
